A study of Mus musculus with 20 samples.

Results

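Ribosome biogenesis factors, the proteins and complexes that make and process ribosomal RNA and assemble it into ribosomal subunits, were followed gene by gene in livers depleted of HuR. The set held 52 genes, chosen by name with earlier results of these data known. Each of the 52 was found once in the table of human genes, which listed 60607 genes, and once in the table of mouse genes, which listed 55335. The members were divided into 7 classes by role, namely the small subunit processome (19 genes), late maturation of the small subunit (4), assembly of the large subunit (14), box C/D small nucleolar ribonucleoproteins (snoRNPs, 3), box H/ACA snoRNPs (4), nucleolar scaffold proteins and helicases (4) and RNA polymerase I with its initiation factor (4).

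The study knocked down HuR (the product of ELAVL1), an RNA-binding protein that acts on mRNA stability and translation, in 2 settings and asked whether human and mouse liver cells respond alike. Total liver RNA was sequenced from 4 HuR knockdown (HuR KD) and 4 control (LacZ) humanized mice and from 6 HuR KD and 6 LacZ wild type (WT) mice, 20 livers in all. Every mouse received an intravenous adenovirus, carrying an shRNA against human HuR in humanized mice or against mouse HuR in WT mice, or the LacZ control virus, and livers were taken at day 7 after a fast of 4 h. Humanized mice were immune-deficient TK-NOG animals, which carry a herpes simplex virus thymidine kinase transgene driven by the mouse albumin promoter. At 8 to 9 weeks of age they were given ganciclovir at 25 mg/kg to remove their own hepatocytes and were then transplanted with cryopreserved primary human hepatocytes. They were used once serum human albumin, measured 8 to 12 weeks later, was above 0.5 mg/ml. WT mice were male C57BL/6 animals, bought at 8 weeks of age. In the humanized livers the human hepatocytes sit among cells of the mouse host, and only the human genes of these livers were analysed here.

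A ribosome begins in the nucleolus, where RNA polymerase I transcribes the precursor of the large ribosomal RNAs and the small subunit processome, a particle of many proteins, folds and cleaves its 5′ part. Box C/D and box H/ACA snoRNPs guide the 2′-O-methylation and pseudouridylation of the RNA, and a second set of assembly factors builds the large subunit. These steps use much of the energy of a growing cell, and in liver they are known to be raised during regeneration and growth.

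Short motifs were counted in the promoters of the mouse members. RefSeq promoter sequences (GRCm38.p6, 250 bases before to 50 bases after the start site) were matched to 43 of the 52 members. Wdr36, Utp6, Dcaf13, Bop1, Fbl, Npm1, Rrp12, Rrs1 and Gnl2 were not matched. The letters CCGGAAGT, a core bound by ETS factors such as GABPA, stood on either strand of 15 of the 43 promoters (34.9%), against 4.31% of the promoters of 27025 genes. The E-box CACGTG, the letters read by MYC with MAX, stood in 9 (20.9%) against 8.09% of all genes, while the TATA box letters TATAAA stood in 3 (6.98%) against 15.7%. Median GC content was 59.3% in the members and 52.7% in all promoters, and the median count of CpG pairs was 22 against 7, so the 2 sets also differed in base composition, whose part in the motif shares was not tested. A match of letters is not a measured binding site. Shown here are Polr1b, the member with the smallest p for a difference between species and neither motif, Wdr3 and Nip7, whose change also differed between species and which hold the ETS letters, Wdr43, which rose in WT livers and holds the E-box, and Tsr1, which holds both. Each runs from 210 bases before to 30 bases after the start site, with the ETS letters and the E-box in capitals. The stretches are chr2:129100786-129101025 for Polr1b (plus strand), chr3:100162378-100162617 for Wdr3 (minus strand), chr8:107056667-107056906 for Nip7 (plus strand), chr17:71616005-71616244 for Wdr43 (plus strand) and chr11:74897870-74898109 for Tsr1 (plus strand).
Polr1b: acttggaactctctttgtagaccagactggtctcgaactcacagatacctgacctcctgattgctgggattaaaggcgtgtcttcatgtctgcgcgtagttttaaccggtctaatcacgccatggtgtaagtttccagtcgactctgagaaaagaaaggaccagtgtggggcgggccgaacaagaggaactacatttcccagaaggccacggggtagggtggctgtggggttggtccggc
Wdr3: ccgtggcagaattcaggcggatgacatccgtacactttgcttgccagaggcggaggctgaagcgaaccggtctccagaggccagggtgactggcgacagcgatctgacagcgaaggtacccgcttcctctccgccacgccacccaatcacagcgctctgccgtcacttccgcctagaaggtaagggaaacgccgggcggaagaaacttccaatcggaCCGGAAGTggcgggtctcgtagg
Nip7: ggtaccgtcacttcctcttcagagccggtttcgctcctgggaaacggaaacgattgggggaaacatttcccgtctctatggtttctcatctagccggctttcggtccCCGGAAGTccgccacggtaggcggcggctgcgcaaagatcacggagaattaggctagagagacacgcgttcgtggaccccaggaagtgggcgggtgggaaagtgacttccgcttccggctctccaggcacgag
Wdr43: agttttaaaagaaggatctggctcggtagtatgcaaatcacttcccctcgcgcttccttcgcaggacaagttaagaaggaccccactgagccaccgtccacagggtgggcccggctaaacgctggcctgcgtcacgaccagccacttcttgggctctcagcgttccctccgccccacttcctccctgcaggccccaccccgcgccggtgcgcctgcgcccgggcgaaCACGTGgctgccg
Tsr1: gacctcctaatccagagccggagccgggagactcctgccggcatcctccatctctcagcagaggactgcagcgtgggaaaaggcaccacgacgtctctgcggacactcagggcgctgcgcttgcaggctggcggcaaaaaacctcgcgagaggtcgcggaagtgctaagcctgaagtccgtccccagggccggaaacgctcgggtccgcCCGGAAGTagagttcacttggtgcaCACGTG

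The ETS letters begin 8 bases into the transcribed part of Wdr3, 103 bases before the start of Nip7 and 1 base before the start of Tsr1, and the E-box begins at base 18 after the start of Wdr43 and at base 25 of Tsr1. HuR binds U-rich and AU-rich stretches, mostly in 3′ untranslated regions, so these were described as well, on the GENCODE M21 transcript with the longest coding sequence of each mouse gene. The members' 3′ untranslated regions were shorter than those of the 11221 genes measured in WT livers, with a median of 497.5 against 934 bases. The letters ATTTA stood in 27 of 52 (51.9%) against 65.3% of those genes, but per kilobase they were as frequent, at 1.90 against 1.84. The count per gene ran from 0 to 26. Of the 6 members whose change differed between species, Nop56 and Polr1b held none, Mrto4 held 1, Wdr3 and Nip7 held 2 and Npm1 held 3, while the highest counts were in the longest regions, with 18 in Nop58 and 26 in Wdr12.

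The unit of all levels below is TPM, the transcript level per gene length scaled to a total of 1000000 in each library, so that levels of different genes can be compared within a table. Reads recovered from the steps of the TPM values put the depth at 2670469 to 20302454 reads assigned to human genes in humanized livers and at 1423985 to 44668272 reads assigned to mouse genes in WT livers. The median member held 42 to 319 reads per humanized liver and 35 to 1133 per WT liver. Some livers stood apart. The deepest humanized livers, HuR KD 4 and LacZ 2, resembled each other (r = 0.965 across genes) more than any liver of their own group. LacZ 2, the shallowest WT library, and HuR KD 6 had median correlations of 0.921 and 0.956 with the other WT livers, where the rest reached 0.981 to 0.984. The human mitochondrial genome took 29.0% to 51.8% of all TPM in humanized livers, whereas mouse mitochondrial genes were listed at 0 in every WT liver.

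HuR itself was lower in every knockdown liver than in any control. Human ELAVL1 was 3.46 ± 0.763 TPM (SD, n = 4) in HuR KD against 5.67 ± 0.623 (n = 4) in LacZ, 61.0% of control (two-sided exact permutation p = 0.0286, the smallest that 70 groupings allow). Mouse Elavl1 was 4.91 ± 0.694 TPM (n = 6) against 9.50 ± 0.789 (n = 6), 51.7% of control (two-sided exact permutation p = 0.00216, the smallest that 924 groupings allow). By limma, adjusted over all genes tested, the human log2 fold change was -0.59 ± 0.17 (SE, adjusted p = 0.214), which did not pass. The mouse log2 fold change was -0.83 ± 0.09 (limma, adjusted p = 0.00105). Among the human genes, 8 hepatocyte markers summed to 40362 to 90205 TPM, 6 endothelial markers to at most 0.865 TPM and 10 T and NK cell markers to at most 0.441 TPM, with CD3D, CD3E, CD8A, GZMA, GZMB, KLRB1 and NKG7 at 0 in all 8 livers. Of 10 human Kupffer cell and macrophage markers, 5 were at 0 (C1QA, C1QB, CLEC4F, MARCO and VSIG4), and the list summed to 7.25 to 67.6 TPM in HuR KD and 21.2 to 142.8 TPM in LacZ. Bile duct and dividing cell markers were also present, at 4.71 to 34.9 TPM for the 4 bile duct genes and 26.7 to 76.0 TPM for the 8 dividing cell genes.

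As a group, the members leaned down in human hepatocytes and up in mouse livers. Because the list was chosen with earlier results of these data known, its counts beside those of all genes describe it and do not test it. A gene was called at an unadjusted limma p under 0.05, the threshold the study used, among genes with a mean of at least 1 TPM, and adjusted values are Benjamini-Hochberg over all genes tested. In humanized livers 48 of the 52 members passed the filter on low values, and 41 of them (85.4%) had a negative and 7 a positive log2 fold change of HuR KD against LacZ, where 57.3% of all genes tested were negative. Called lower were 9 of the 48, against 7.87% of all 12738 genes tested, and called higher were 0, against 3.60% of all genes. In WT livers all 52 members passed the filter, and 47 had a positive and 5 (9.62%) a negative log2 fold change, where 43.2% of all genes tested were negative. Called higher were 13 of the 52, against 9.09% of all 15090 genes tested, and called lower were 0, against 6.94% of all genes. After adjustment over all genes no member passed in either table with limma on log2 values, where 0.212% of all genes did in humanized livers and 0.888% in WT livers. With voom on the recovered reads the number at an adjusted p under 0.05 was 0 in humanized and 5 in WT livers. That fit called more of all genes as well, 63 of 12385 in humanized and 530 of 15077 in WT livers. The changes were small, with a median log2 fold change of -0.18 over the members in humanized livers (all genes -0.05) and of 0.15 in WT livers (all genes 0.03).

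Individual livers carried these counts unequally. In humanized livers 7 tested members had every HuR KD liver below every LacZ liver, against 5.03% of all genes, and none had every HuR KD liver above, against 2.13%. In WT livers no member separated the groups in either direction, against 1.25% of all genes upwards and 1.23% downwards. The median over the members of log2(TPM + 1) minus the gene's mean was lowest in HuR KD 6 of all WT livers, at -0.23, while it was 0.12 to 0.22 in HuR KD 1, 2, 4 and 5, -0.02 in HuR KD 3 and -0.14 to -0.02 in the LacZ livers. Over all genes tested HuR KD 6 was again the lowest WT liver, at -0.11, with 0.03 to 0.07 in HuR KD 1, 2, 4 and 5. HuR KD 3 was there at -0.03 and the LacZ livers at -0.06 to 0.07. Without HuR KD 6, 30 of 52 members were called higher, 4 of them at an adjusted p under 0.05, and without it and LacZ 2 these counts were 35 and 11. Counts over all genes grew too. In the main fit 1371 of 15090 genes were called higher. Without HuR KD 6 the count was 1873 of 15124, and without both livers 2323 of 15082. At an adjusted p under 0.05, in either direction, these fits called 134, 371 and 762 genes. In humanized livers the HuR KD medians were -0.16, -0.16, 0.09 and -0.13 and the LacZ medians 0.12, -0.05, 0.07 and 0.29, so that HuR KD 3 lay among the controls. Over all genes tested the same livers were at -0.07, -0.14, 0.13 and -0.05 in HuR KD and at -0.02, -0.05, 0.07 and 0.13 in LacZ. Part of the member medians was thus a shift of the whole library, most plainly in HuR KD 2 and 3 and LacZ 2 and 3. Leaving out the HuR KD 4 and LacZ 2 livers gave 10 members called lower, and leaving out HuR KD 2 or LacZ 3 alone gave 5. Over all genes the main fit called 1003 of 12738 lower, and these counts moved the same way. They were 1437 of 12826 without HuR KD 4 and LacZ 2, 656 of 12816 without HuR KD 2 and 711 of 12700 without LacZ 3. Where the human values were rescaled, the split of calls moved: 7 members were lower and 1 higher (NOP14) with median-of-ratios factors or quantile normalization, and 5 lower and 1 higher (again NOP14) with values rescaled to nuclear protein-coding genes. Over all human genes the share of calls that were higher went from 31.3% to between 47.3% and 49.4% with these scalings, and the median of all genes to between 0.01 and 0.02, while the members stayed 0.12 to 0.13 below it on the log2 scale.

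**Figure D1:**
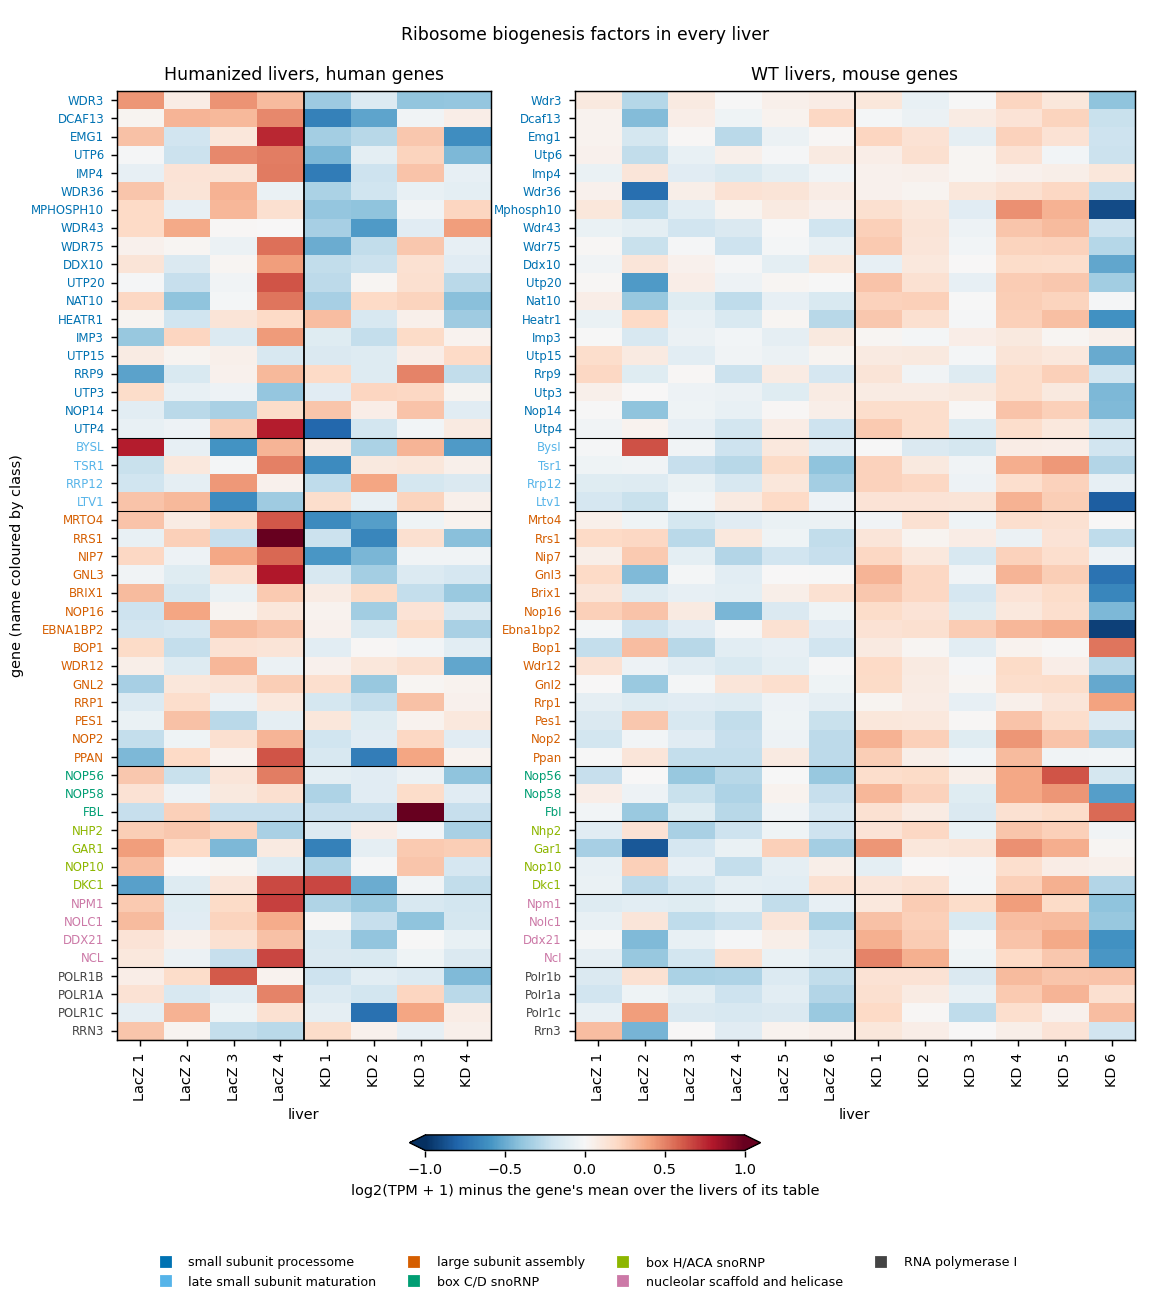
Each row is 1 of the 52 members and each column 1 liver, with humanized livers (human genes) on the left and WT livers (mouse genes) on the right. Colour gives log2(TPM + 1) minus the gene's mean over the livers of its table, and the scale ends at -1 and 1. Many human members are blue in the HuR KD columns, most mouse members are red in HuR KD 1, 2, 4 and 5, and HuR KD 6 of the WT livers is blue for much of the small subunit processome, large subunit and scaffold classes.

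**Figure D2:**
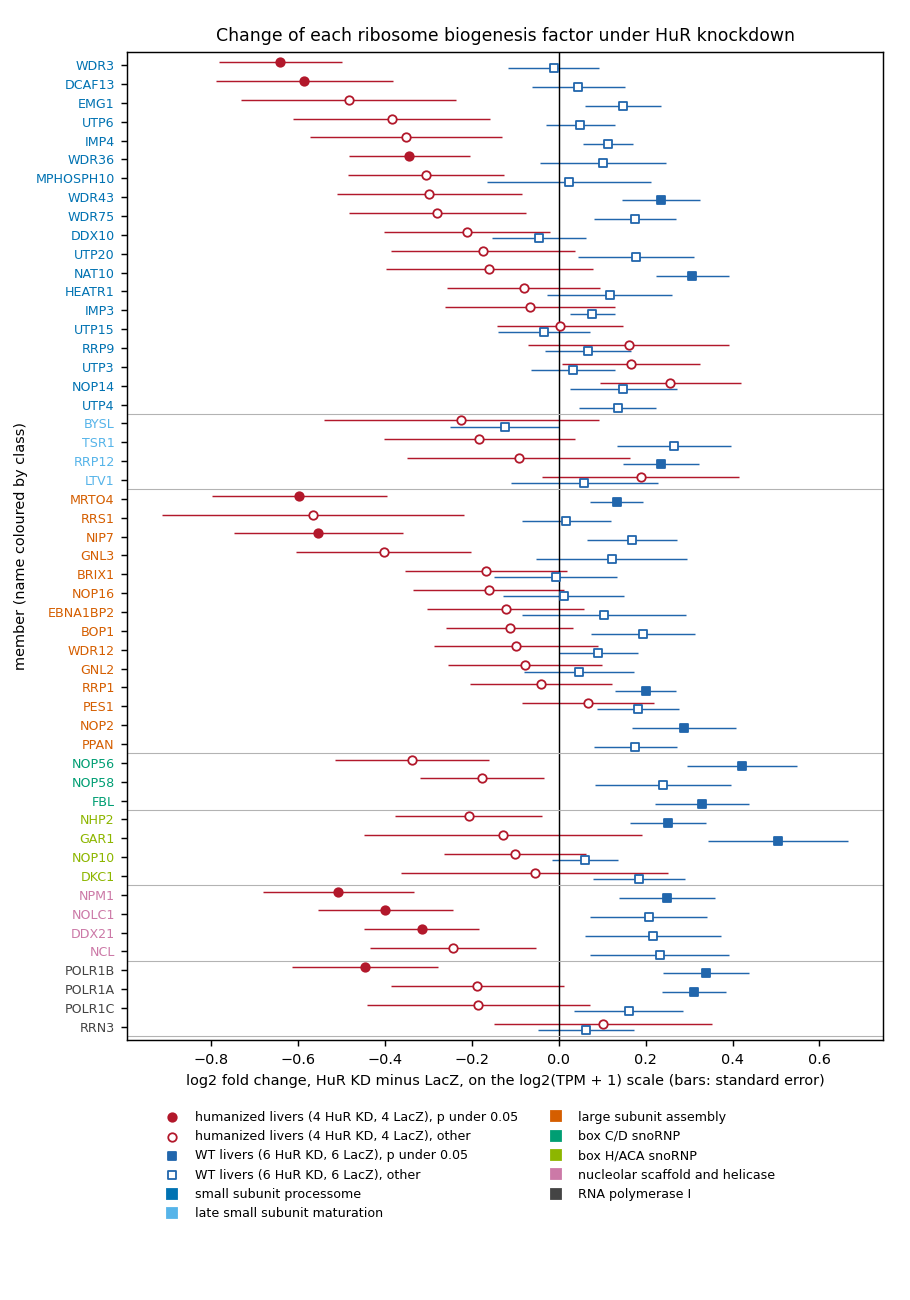
Log2 fold change of HuR KD against LacZ for each member, with its standard error, in humanized livers (circles) and WT livers (squares), where filled symbols mark a limma p under 0.05. Circles lie mostly left of 0 (41 of 48) and squares mostly right of it (47 of 52), and 4 human members below the filter have no circle.

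In the classes below, members said to fall or rise are those called at the unadjusted threshold. Of all genes tested, 7.87% were called lower in humanized livers and 9.09% higher in WT livers. Most classes held at most 4 tested genes, so their counts of calls say little. The small subunit processome was the largest class. In humanized livers 3 of the 18 tested members of this class fell (WDR3, DCAF13 and WDR36), 14 of 18 had a negative log2 fold change and the class median was -0.25. In WT livers 2 of 19 rose (Nat10 and Wdr43), or 10.5%, a share near the 9.09% of all genes, and the class median was 0.10. The member with the smallest p in the human table was WDR3, a WD-repeat protein of the processome. It read 4.62, 5.56, 4.50 and 4.52 TPM in HuR KD and 8.81, 6.60, 8.86 and 7.99 TPM in LacZ. All 4 knockdown livers were below all 4 controls, and the log2 fold change was -0.64 ± 0.14 (SE, limma, adjusted p = 0.111). Mouse Wdr3 (chromosome 3, 100138180 to 100162407, GRCm38) ran from 11.02 through a median of 15.5 to 17.5 TPM in HuR KD and from 12.0 through 15.6 to 16.02 TPM in LacZ, so the groups overlapped (log2 fold change -0.01 ± 0.10). DCAF13, the human homologue of yeast Sof1, was 2.23, 2.58, 4.04 and 4.39 TPM in HuR KD and 4.25, 5.53, 5.46 and 6.20 TPM in LacZ. Only HuR KD 4 reached the level of a control, and the log2 fold change was -0.59 ± 0.20 (adjusted p = 0.309). In WT livers Dcaf13 was 8.56 ± 1.02 TPM against 8.31 ± 1.29 TPM (SD, n = 6 each), a log2 fold change of 0.04 ± 0.11. WDR36, known also as a gene linked to glaucoma, was 9.46, 10.3, 11.4 and 11.2 TPM in HuR KD and 14.8, 13.2, 15.5 and 11.5 TPM in LacZ. Its groups did not overlap either, though HuR KD 3 and LacZ 4 nearly met (log2 fold change -0.34 ± 0.14, adjusted p = 0.383). The WDR36 call was lost in 4 of 8 fits that left out 1 liver (HuR KD 1 or 2, LacZ 1 or 3) and with other scalings, voom or the replicate block. It was also lost without the 2 deepest humanized livers.

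Among the mouse members of the processome, Nat10, the enzyme that acetylates cytidines in the small subunit RNA, had the smallest p. Nat10 (chromosome 2, 103721256 to 103761270) ran from 10.3 through 12.3 to 12.5 TPM in HuR KD and from 7.77 through 9.39 to 10.9 TPM in LacZ. In 4 of the 6 knockdown livers it was above every control, and the log2 fold change was 0.31 ± 0.08 (limma, adjusted p = 0.0992). Human NAT10 was 5.29 TPM in HuR KD and 6.07 TPM in LacZ, a log2 fold change of -0.16 ± 0.24. Wdr43 (chromosome 17, 71615895 to 71659031), a protein of the early processome, ran from 20.02 through 26.6 to 29.2 TPM against 20.1 through 21.3 to 23.2 TPM. HuR KD 6 was its lowest liver and 4 of 6 knockdown livers were above every control, with a log2 fold change of 0.24 ± 0.09 (adjusted p = 0.216). Without HuR KD 5 the Wdr43 call was lost. The most abundant processome gene in both tables was IMP3, a small protein that joins the U3 snoRNA to the precursor RNA. It did not pass in either table, at 17.7 ± 2.48 against 18.9 ± 4.90 TPM in humanized livers (n = 4 each) and 77.9 ± 2.24 against 73.9 ± 4.52 TPM in WT livers (n = 6 each), and the sign of its human log2 fold change of -0.07 turned under other scalings. Human NOP14, named after its values were seen, did not pass, at 14.6 ± 2.00 TPM against 12.1 ± 2.18 TPM (log2 fold change 0.26 ± 0.16), and UTP4, at 0.513 TPM in HuR KD and 1.09 TPM in LacZ, was below the filter.

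Late maturation of the small subunit takes the particle to the cytoplasm. None of the 4 human members passed, and 1 of 4 mouse members rose. Rrp12 (chromosome 19, 41862851 to 41896173), a HEAT-repeat protein needed for export of pre-ribosomes, ran from 7.70 through 9.51 to 9.85 TPM in HuR KD and from 6.30 through 7.44 to 8.96 TPM in LacZ. In 4 of 6 livers it was above every control, and the log2 fold change was 0.23 ± 0.09 (limma, adjusted p = 0.207). The most abundant member of the class in both tables was TSR1, a GTPase-like protein of the late precursor particle. In humanized livers TSR1 was 4.86, 8.65, 8.76 and 8.37 TPM in HuR KD and 6.72, 8.74, 7.90 and 11.8 TPM in LacZ. The low HuR KD 1 and the high LacZ 4 made most of the difference (log2 fold change -0.18 ± 0.22). Mouse Tsr1 was 23.8 ± 4.47 TPM against 19.5 ± 3.09 TPM (n = 6 each), a log2 fold change of 0.27 ± 0.13 that did not pass.

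The large subunit assembly factors build the precursor of the large subunit. Of 12 tested human members 2 fell (MRTO4 and NIP7), 11 had a negative log2 fold change and the class median was -0.14. Of 14 mouse members 3 rose (Rrp1, Mrto4 and, named after its values were seen, Nop2), 13 had a positive log2 fold change and the class median was 0.13. MRTO4, a homologue of the ribosomal stalk protein P0 that holds its place on the nascent large subunit, was 3.51, 3.79, 5.83 and 6.21 TPM in HuR KD and 7.55, 6.45, 7.08 and 9.83 TPM in LacZ. Every knockdown liver was below every control, with HuR KD 1 and 2 lowest (log2 fold change -0.60 ± 0.20, limma, adjusted p = 0.295). Mouse Mrto4 (chromosome 4, 139347435 to 139352576) ran from 16.8 through 18.5 to 19.6 TPM against 15.3 through 16.6 to 18.04 TPM, a log2 fold change of 0.13 ± 0.06 (adjusted p = 0.308). This call was lost in 8 of 12 fits that left out 1 liver (all but HuR KD 1, 3 or 6 and LacZ 1), with a limma p of up to 0.109, and also without the trend and with the replicate block. NIP7, which acts in the processing of precursor RNA, was 3.11, 3.47, 5.01 and 4.98 TPM in HuR KD and 6.07, 4.91, 7.01 and 8.14 TPM in LacZ. The lowest control, LacZ 2, lay just under HuR KD 3 and 4 (log2 fold change -0.55 ± 0.19, adjusted p = 0.315). The human NIP7 call was lost without HuR KD 1, HuR KD 2 or LacZ 4 (limma p of up to 0.0534) and with voom, and that of human MRTO4 with voom. In WT livers Nip7 (chromosome 8, 107056877 to 107060931) was 11.9 ± 1.36 TPM against 10.6 ± 1.74 TPM (n = 6 each) and did not pass.

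GNL3 (nucleostemin), a nucleolar GTPase of dividing and stem cells, was the most abundant large subunit factor in the human table. It was 21.0, 18.4, 21.3 and 20.9 TPM in HuR KD and 22.95, 21.6, 26.5 and 41.8 TPM in LacZ. The groups did not overlap, but LacZ 4 stood far above the rest and the log2 fold change of -0.40 ± 0.20 did not pass (limma, adjusted p = 0.498). Mouse Rrp1 (chromosome 10, 78400384 to 78413043), a factor of precursor RNA processing, led its class in the WT livers. It ran from 43.7 through 48.5 to 61.4 TPM in HuR KD and from 42.2 through 43.0 to 44.8 TPM in LacZ. HuR KD 6 was the highest and 5 of 6 knockdown livers were above every control (log2 fold change 0.20 ± 0.07, adjusted p = 0.186). The Rrp1 call was lost with median-of-ratios factors. Human RRP1 was 4.20 TPM in HuR KD and 4.31 TPM in LacZ. Human RRS1, named after its values were seen, had a log2 fold change of -0.57 ± 0.35 that did not pass, and it rested on 2 to 16 reads per HuR KD liver and 7 to 36 per LacZ liver. NOP2 and PPAN were below the filter in humanized livers, at 0.374 and 0.793 TPM in LacZ.

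Among the proteins of the box C/D and box H/ACA snoRNPs no human member of either class passed, while 2 of 3 mouse box C/D members and 2 of 4 mouse box H/ACA members rose. Of all mouse genes tested 9.09% were called higher, but these classes are too small to set against that share. NOP56, a core protein of the box C/D particle, was 8.42, 8.32, 8.68 and 6.65 TPM in HuR KD and 11.2, 7.63, 9.99 and 13.4 TPM in LacZ of the humanized livers. Only LacZ 2 fell among the knockdown livers (log2 fold change -0.34 ± 0.18, limma, adjusted p = 0.514). Mouse Nop56 (chromosome 2, 130274430 to 130279313) ran from 11.9 through 15.6 to 21.6 TPM in HuR KD and from 10.2 through 11.2 to 13.7 TPM in LacZ. In 5 of 6 livers it was above every control, with a log2 fold change of 0.42 ± 0.13 (adjusted p = 0.123). Fbl (chromosome 7, 28169710 to 28179269), fibrillarin, the methyltransferase of the particle, ran from 5.37 through 6.79 to 9.37 TPM against 4.43 through 5.36 to 5.90 TPM. Again 5 of 6 knockdown livers exceeded every control, and HuR KD 6 was the highest (log2 fold change 0.33 ± 0.11, adjusted p = 0.160). Human FBL was listed at 0 in 6 of 8 livers, at 1.62 TPM in HuR KD 3 and at 0.383 TPM in LacZ 2, so no comparison was made. NOP58, the most abundant human box C/D gene, was 10.8 ± 1.71 TPM against 12.2 ± 0.870 TPM (n = 4 each) and did not pass.

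Gar1 (chromosome 3, 129824912 to 129831396), a core protein of the box H/ACA particle, had the largest log2 fold change of any mouse member. It ran from 2.63 through 3.27 to 3.91 TPM in HuR KD and from 0.989 through 2.02 to 3.24 TPM in LacZ. The lowest value, in LacZ 2, came from 1 read, and the log2 fold change was 0.51 ± 0.16 (limma, adjusted p = 0.1503). In humanized livers GAR1 rested on 1 to 33 reads per HuR KD liver and was 1.09 TPM against 1.27 TPM. Nhp2 (chromosome 11, 51619735 to 51623714), another core protein, ran from 31.9 through 37.8 to 40.7 TPM against 26.5 through 29.9 to 37.0 TPM. In 3 of 6 livers it was above every control (log2 fold change 0.25 ± 0.09, adjusted p = 0.181), while human NHP2 was 19.6 TPM in HuR KD and 23.03 TPM in LacZ (log2 fold change -0.21 ± 0.17). NOP10, the smallest core protein of the particle, was the most abundant of its class in both tables. Its groups overlapped at 84.2 ± 15.3 against 89.9 ± 12.2 TPM in humanized livers (n = 4 each) and at 72.9 ± 4.62 against 70.1 ± 8.16 TPM in WT livers (n = 6 each).

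The nucleolar scaffold proteins and helicases had the lowest human class median, -0.36, and 3 of its 4 human members fell (NPM1, NOLC1 and DDX21), while 1 of 4 mouse members rose (Npm1). NPM1 (nucleophosmin), the protein that forms the outer granular part of the nucleolus, was the most abundant member in both tables. Human NPM1 was 80.6, 76.4, 88.5 and 87.3 TPM in HuR KD and 119, 91.1, 114 and 159.8 TPM in LacZ. All knockdown livers were below all controls, LacZ 2 being the nearest (log2 fold change -0.51 ± 0.17, limma, adjusted p = 0.302). NPM1 has many processed copies in the human genome: 46 rows named as NPM1 pseudogenes summed to 30.4 TPM on average, 29.8% of the level of NPM1, so reads may have been split between them. The same holds for some other human members. Their pseudogene rows reached 22.4% of the level of RRN3, 21.8% of DDX10, 14.9% of DCAF13, 6.43% of NOP56 and 0.738% of IMP3. For the remaining members with such rows these were at 0. Mouse Npm1 (chromosome 11, 33152287 to 33163206) ran from 81.8 through 123.9 to 145.6 TPM in HuR KD and from 91.6 through 100.5 to 103.3 TPM in LacZ. Only HuR KD 6 was below the controls, the other 5 livers being above all of them, and the log2 fold change was 0.25 ± 0.11 (adjusted p = 0.294). The mouse Npm1 call was lost in 11 of 12 fits that left out 1 liver, all but the one without HuR KD 6, with a limma p of up to 0.101. NOLC1, a phosphoprotein that binds snoRNPs and RNA polymerase I, was 13.7, 11.5, 10.1 and 11.9 TPM in HuR KD and 17.2, 12.5, 16.1 and 17.9 TPM in LacZ. LacZ 2 lay within the knockdown range (log2 fold change -0.40 ± 0.15, adjusted p = 0.365). The human RNA helicase gene DDX21 was 23.5, 19.8, 26.3 and 25.0 TPM in HuR KD and 29.1, 27.3, 29.4 and 32.4 TPM in LacZ. These groups did not overlap (log2 fold change -0.32 ± 0.13, adjusted p = 0.410). As single livers were left out, the human DDX21 call was lost in 6 of 8 fits (all but those without HuR KD 3 or LacZ 2; limma p of up to 0.108) and that of NOLC1 in 5 of 8 (HuR KD 2 or 3, LacZ 1, 3 or 4; limma p of up to 0.0766). Both calls were also lost with voom and with values rescaled to nuclear protein-coding genes. The DDX21 call was lost without the trend as well, and that of NOLC1 with median-of-ratios factors or quantile normalization. In WT livers Nolc1 was 21.8 ± 4.29 TPM against 18.6 ± 2.65 TPM (n = 6 each) and did not pass.

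RNA polymerase I makes the precursor on which all other members act. Of its human members 1 of 4 fell (POLR1B), and of the mouse members 2 of 4 rose (Polr1a and Polr1b). POLR1B, the second largest subunit of the enzyme, was 4.36, 4.75, 4.64 and 3.55 TPM in HuR KD and 5.48, 6.01, 8.46 and 5.33 TPM in LacZ. The groups did not overlap, LacZ 3 being the highest (log2 fold change -0.45 ± 0.17, limma, adjusted p = 0.352). The human call was lost without HuR KD 4 or LacZ 3 (limma p of up to 0.0760). It was also lost with values rescaled to nuclear protein-coding genes, at a mean of at least 5 TPM and without the 2 deepest humanized livers. Mouse Polr1b (chromosome 2, 129100995 to 129126594) ran from 12.0 through 15.6 to 16.8 TPM in HuR KD and from 10.5 through 11.5 to 14.9 TPM in LacZ. In 3 of 6 livers it was above every control (log2 fold change 0.34 ± 0.10, adjusted p = 0.114). Polr1a (chromosome 6, 71909053 to 71984935), which encodes the largest subunit, had the smallest p of all mouse members. It ran from 15.95 through 19.0 to 21.5 TPM against 13.6 through 15.1 to 16.3 TPM. In 5 of 6 knockdown livers, HuR KD 6 among them, it was above every control, and the log2 fold change was 0.31 ± 0.07 (adjusted p = 0.0637). Human POLR1A was 2.51, 2.40, 3.47 and 2.19 TPM in HuR KD and 3.25, 2.46, 2.58 and 4.44 TPM in LacZ, groups that overlapped (log2 fold change -0.19 ± 0.20). RRN3 (TIF-IA), the growth-regulated factor that brings the polymerase to the promoter, did not pass in either table, with 1.18 ± 0.164 against 1.05 ± 0.376 TPM in humanized livers and 20.4 ± 1.68 against 19.7 ± 3.51 TPM in WT livers.

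**Figure D3:**
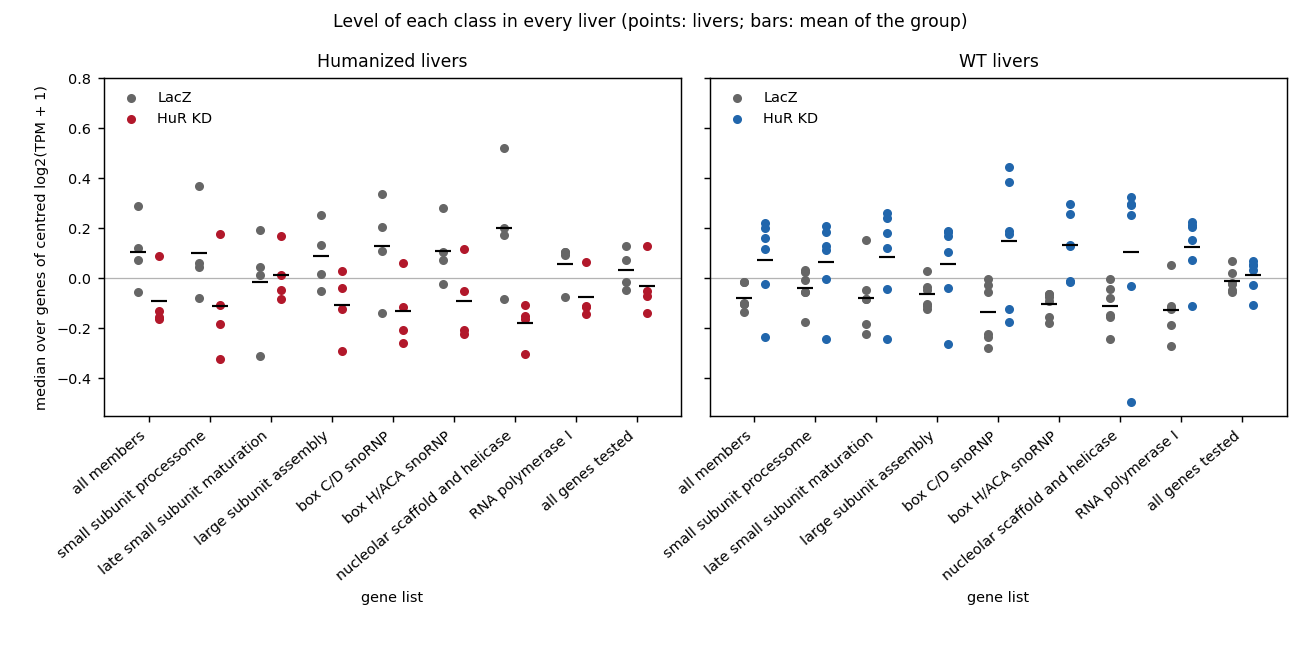
Each point is 1 liver and gives the median over a class of log2(TPM + 1) minus the gene's mean over the livers of its table, with LacZ in grey and HuR KD in colour, and black bars at the group means. By group mean the humanized HuR KD livers lie lower except in late small subunit maturation, the WT HuR KD livers lie higher, livers overlap in most classes, and over all genes tested the groups lie close to 0.

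The difference between the human and the mouse change was tested directly. Genes of the same symbol were paired, and the change of HuR KD against LacZ within 1 table was set against the change within the other, so that no level was compared across tables. Species differed here together with the host strain, the shRNA, the share of HuR that remained, the group size, the read length and the depth, and these cannot be told apart. Of the 48 pairs of members, 37 had a negative human and a positive mouse log2 fold change (77.1%, against 33.7% of all 8202 pairs). The human change was below the mouse change in 42 of 48 pairs, and the median difference was -0.38 on the log2 scale, against -0.09 over all pairs. At an unadjusted p under 0.05 the human change was lower in 19 pairs, against 14.2% of all pairs. At an adjusted p under 0.05 it was lower in 6 pairs, against 3.74% of all pairs, and higher in 0, against 1.27%, with the same limma fit calling 0 member pairs in that direction at an unadjusted p under 0.05.

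These 6 pairs came from 5 of the 7 classes. POLR1B differed by -0.79 on the log2 scale (SE 0.18, limma, adjusted p = 0.0123), NOP56 by -0.76 (SE 0.21, adjusted p = 0.0363), NPM1 by -0.76 (SE 0.20, adjusted p = 0.0272), MRTO4 by -0.73 (SE 0.18, adjusted p = 0.0196), NIP7 by -0.72 (SE 0.20, adjusted p = 0.0387) and WDR3 by -0.63 (SE 0.17, adjusted p = 0.0301). In 5 of them the human value was negative and the mouse value positive, and in WDR3 the mouse value was close to 0. DCAF13 differed by -0.63 (SE 0.21, adjusted p = 0.0829) and NOLC1 by -0.61 (SE 0.20, adjusted p = 0.0903), which did not pass. The number of pairs at an adjusted p under 0.05 ran from 2 to 9 as single livers were left out and was 4 with voom on recovered reads, and POLR1B alone of the 6 passed in all 33 alternatives. These included a fit that kept the spread of each table apart. Its p came from a normal distribution, which ignores the small number of livers and makes p smaller, so passing it is weak evidence. The main fit shared a variance per gene between the tables, and its standard errors rest on that.

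**Figure D4:**
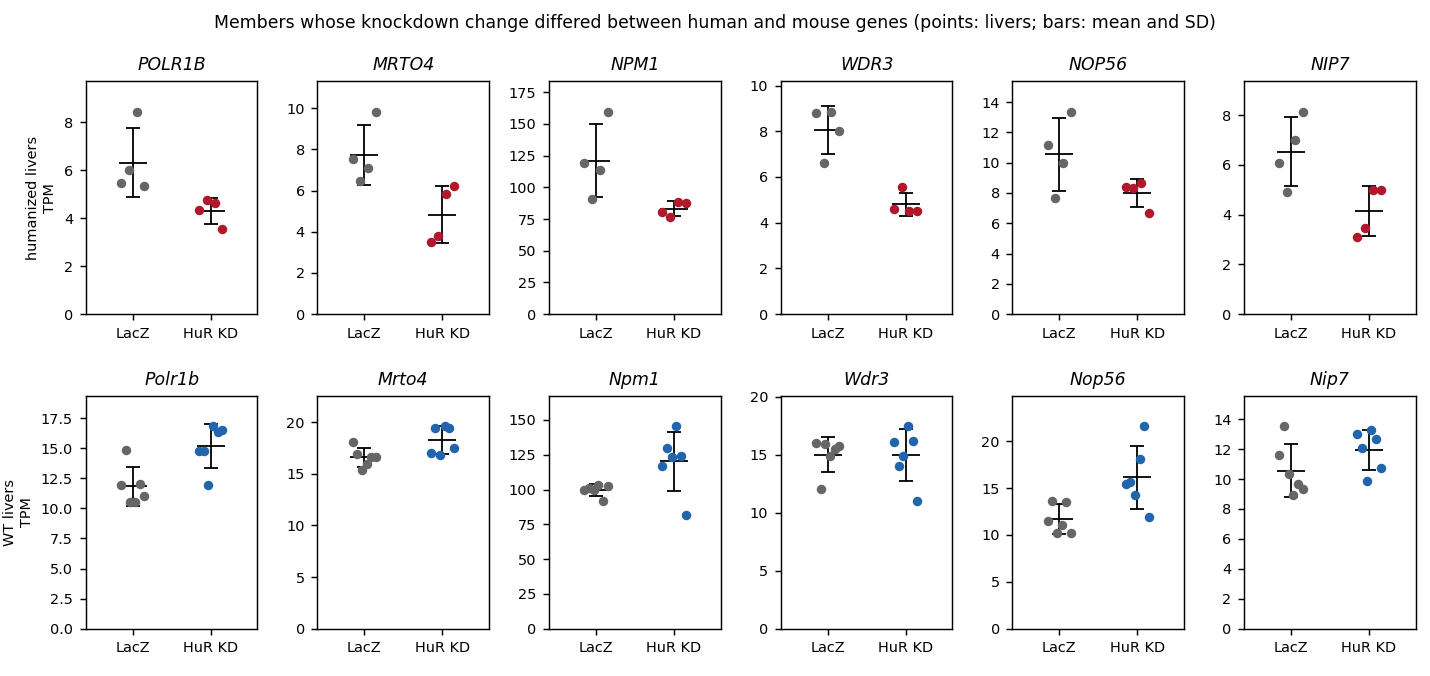
TPM of the 6 members whose change differed between the tables, in humanized livers (top) and WT livers (bottom), with 1 point per liver and black bars for the mean and SD. Axes start at 0 and differ between panels. In the top row the groups do not overlap in POLR1B, MRTO4, NPM1 and WDR3, and in the bottom row they overlap in every panel, with the HuR KD mean above the LacZ mean in all but Wdr3.

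Other genes of the pathway, 117 in all, were read in the same fits. In humanized livers 4 of 105 tested were lower and 3 higher, shares below the 7.87% and 3.60% of all genes, and their median log2 fold change was -0.10. EXOSC5, a core subunit of the RNA exosome, was 5.05 ± 1.11 TPM in HuR KD against 8.82 ± 1.94 TPM in LacZ (log2 fold change -0.70 ± 0.19, limma, adjusted p = 0.185), and NOB1, the nuclease that ends the small subunit RNA, was 5.09 ± 1.72 against 8.07 ± 1.19 TPM (-0.62 ± 0.23, adjusted p = 0.343). RUVBL1, an ATPase of snoRNP assembly, was 5.76 ± 1.87 against 3.25 ± 0.925 TPM (0.65 ± 0.25, adjusted p = 0.369), and WDR18 was 8.64 ± 0.821 against 6.502 ± 1.06 TPM (0.37 ± 0.14, adjusted p = 0.371). In WT livers 24 of 115 tested were higher and 1 lower, where 9.09% and 6.94% of all genes were, with a median log2 fold change of 0.10. Exosc10, the nuclear exonuclease of the exosome, rose from 15.6 ± 1.26 to 19.5 ± 1.58 TPM (0.31 ± 0.07, adjusted p = 0.0550), and Las1l, an endonuclease of large subunit processing, rose from 6.26 ± 0.336 to 7.61 ± 0.470 TPM (0.25 ± 0.06, adjusted p = 0.06997). Gnl3l, a relative of nucleostemin, went against the rest: it fell from 11.9 ± 0.912 to 8.38 ± 0.396 TPM (-0.45 ± 0.06, adjusted p = 0.00475), the one call below an adjusted p of 0.05 among the pathway genes of either table. Tex10, the other mouse gene with the smallest p in that direction, was 5.81 ± 0.911 against 6.43 ± 0.479 TPM and did not pass. The cytosolic ribosomal proteins, by symbol, moved the same ways as the members in each table, 33 of 77 tested being lower and 0 higher in humanized livers (median log2 fold change -0.30) and 45 of 81 being higher and 0 lower in WT livers (median 0.21). Of all genes 7.87% were lower in humanized and 9.09% higher in WT livers.

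Some lists of cell markers leaned with the groups, while others hardly moved. Of all genes tested, 7.87% were called lower and 3.60% higher in humanized livers, and 6.94% lower and 9.09% higher in WT livers. The lists are too short to set against these shares. In humanized livers 1 of 3 tested bile duct genes was lower and 0 higher in HuR KD (median log2 fold change -0.83), with the list at 4.71 to 26.8 TPM against 10.1 to 34.9 TPM in LacZ, and the 2 tested Kupffer cell and macrophage genes had a median log2 fold change of -1.21 with neither called. The 8 tested human dividing cell genes leaned up (median 0.16) and the 8 hepatocyte genes down (median -0.08), with 0 called in either list. In WT livers, of 9 tested Kupffer cell and macrophage genes 4 were lower and 0 higher in HuR KD, where the list summed to 237 to 438 TPM against 375 to 497 TPM in LacZ, and 2 of 6 tested T and NK cell genes were lower. Of 6 tested endothelial genes 1 was higher (median -0.02), and of 6 tested stellate cell genes 1 was lower (median -0.01). The 3 tested neutrophil genes (median -0.23) and the 1 tested B cell gene (0.07) were not called. None of the 6 hepatocyte, 4 dividing cell and 1 bile duct genes tested was called either. The hepatocyte list summed to 73699 to 85158 TPM in HuR KD and 68508 to 81036 TPM in LacZ, and the list of dividing cells to 5.74 to 17.3 TPM and 6.27 to 18.4 TPM. In bulk RNA, fewer cells of a type and less RNA per cell cannot be told apart, and the part of cell composition in the members' changes was not tested.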

How the data were processed

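Total RNA of 8 humanized and 12 WT livers was sequenced as strand-specific paired-end libraries. Per the labels, reads were trimmed with Trim Galore, aligned with HISAT2 to GRCh38 or mm10 and counted with featureCounts (Subread). The study reports that humanized livers were mapped against a joint index holding the human and the mouse genome. Exchange or loss of reads between similar human and mouse genes was not tested. The authors deposited 1 table of TPM per species, and the formula behind it is not stated. Low TPM values were whole multiples of the value of 1 read, and whole reads were solved for 100% of the genes above 0 in at least 4 livers (18702 human and 25110 mouse genes), which gave the depth of each liver and its counting precision. Reads without molecular identifiers are not independent molecules.

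Each table was fitted on its own with limma 3.58.1 (R 4.3.3), with a mean-variance trend, on log2(TPM + 1) over genes with a mean of at least 1 TPM, without a block for the replicate number, and p-values were adjusted by Benjamini-Hochberg over all genes tested. A fold change on this scale understates the change of low genes. The difference between species was an interaction in a joint limma fit over genes with the same symbol. That fit shared a residual variance per gene between the tables, although the separate fits differed in precision. For MRTO4 the separate fits gave a standard error of 0.20 in humanized and 0.06 in WT livers. Each library is labelled as a separate numbered liver sample, but litters, cages and hepatocyte donors are not given in the sources used here, so p-values measure only the spread between these samples. Members named in the text are, in each table, the 10 with the smallest p, the most abundant of each class in LacZ and the 8 pairs with the smallest interaction p, and of the 117 other pathway genes the 2 with the smallest p in each direction. Members, classes and lists were chosen with earlier results of these data known. In all 10 kinds of alternative were planned, and 3 that concern livers standing apart were chosen after seeing the data. Promoters came from RefSeq (GRCm38.p6) and mouse coordinates and 3′ untranslated regions from GENCODE M21. The limma script was tested on simulated data.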

Additional observations from a re-analysis of the deposited data

Results flagged for a closer look

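In 78 groups of 4 or 6 livers the highest and the lowest liver were compared with the rest by Dixon's criterion, which chance exceeds in about 1 of 20 groups. In the humanized HuR KD group WDR3 was far highest in 1 liver at 5.56 TPM, the rest being at 4.50 to 4.62 TPM, GNL3 was far lowest at 18.4 TPM (rest 20.9 to 21.3 TPM) and TSR1 far lowest at 4.86 TPM (rest 8.37 to 8.76 TPM). The median over all members stood far highest in HuR KD 3, at 0.0907 on the log2 scale relative to each gene's mean, the rest being at -0.16 to -0.13. Over all genes tested HuR KD 3 was also the highest of its group, at 0.13. In the WT LacZ group Polr1b was far highest at 14.9 TPM (rest 10.5 to 12.0 TPM), Npm1 far lowest at 91.6 TPM (rest 99.4 to 103.3 TPM) and Wdr3 far lowest at 12.0 TPM (rest 14.9 to 16.02 TPM), and the liver was LacZ 2 for Polr1b and Wdr3.

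The change of HuR KD against LacZ differed between human and mouse genes, by a limma interaction at an adjusted p under 0.05, for 6 members. The human minus mouse difference in log2 fold change was -0.79 for POLR1B, -0.73 for MRTO4, -0.76 for NPM1, -0.63 for WDR3, -0.76 for NOP56 and -0.72 for NIP7.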

How the results depend on the processing

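The number of members lower in humanized livers (9) was 5 with values rescaled to nuclear protein-coding genes, 4 with voom on recovered reads and 5 to 13 as single livers were left out (5 without HuR KD 2 or LacZ 3). Over all genes tested the number lower (1003) was 795 with values rescaled to nuclear protein-coding genes and 741 with voom. It was 656 without HuR KD 2, 711 without LacZ 3 and 1434 without LacZ 2, where 13 members were lower. The number higher in WT livers (13) was 24 with voom, 9 to 30 as single livers were left out (30 without HuR KD 6) and 35 without HuR KD 6 and LacZ 2. Over all genes tested the number higher (1371) was 1848 with voom, 1873 without HuR KD 6 and 2323 without both livers. At an adjusted p under 0.05 the WT number (0) was 1 at a mean of at least 5 TPM, 5 with voom, 0 to 4 as single livers were left out (2 without HuR KD 3, 4 without HuR KD 6, 1 without LacZ 2) and 11 without those 2 livers. Over all genes (134) it was 221 at a mean of at least 5 TPM, 530 with voom and 762 without those 2 livers. It was 251 without HuR KD 3, 371 without HuR KD 6 and 186 without LacZ 2. The number of member pairs that differed between species (6) was 2 to 9 as single livers were left out (2 without humanized HuR KD 1, humanized HuR KD 2 or WT HuR KD 4, and 3 without humanized LacZ 1 or 3 or WT HuR KD 1 or 5) and 10 without the deepest 2 humanized livers. Of the other pathway genes, the number called in humanized livers (7) was 2 to 11 as single livers were left out and 11 both without the deepest 2 livers and with these as a batch term, and the number called in WT livers (25) was 39 with voom, 18 to 46 as single livers were left out and 62 without HuR KD 6 and LacZ 2. The cause of these shifts was not tested.

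Log2 fold changes close to 0 turned in sign. Human IMP3 was 0.0144 with median-of-ratios factors, 0.0219 rescaled to nuclear protein-coding genes, 0.0252 with voom and -0.20 to 0.0664 as single livers were left out. In WT livers Rrn3 ran from -0.0246 to 0.13 and Wdr3 from -0.0699 to 0.0674 as single livers were left out, Wdr3 was 0.0092 without HuR KD 6 and LacZ 2, and Dcaf13 was -0.0019 with voom and -0.0373 to 0.0934 as single livers were left out. Over the 43 named log2 fold changes and differences, 843 of 986 recomputed values kept their direction and their side of the threshold, 22 gained a call, 14 turned and the rest lost the call. HuR itself was lower in every alternative.

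The labels do not say what the replicate numbers shared by the groups mark, and so few livers cannot exclude a pairing. Deviations from the group means correlated at r = 0.137, -0.217, 0.036 and -0.249 for the 4 numbers of the humanized livers and at 0.206, 0.016, 0.049, -0.020, 0.160 and -0.142 for the 6 of the WT livers, and 2 of 8 and 3 of 12 livers were most like the one with their own number. With the replicate number as a block, 8 members were lower in humanized and 13 higher in WT livers and 5 pairs differed.

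The median member had 42 reads in the shallowest humanized liver. UTP4, NOP2, FBL and PPAN were below the filter on mean TPM in humanized livers; without the filter all 52 members were tested and the number lower was again 9. FBL was listed at 0 in 6 of 8 livers, which is not read as low expression.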

Other observations

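MYC, a transcription factor known to drive ribosome biogenesis genes, was looked up after the members' values were seen. In humanized livers it was 3.47 ± 2.34 TPM in HuR KD (1.41 to 6.73 TPM) and 5.80 ± 1.90 TPM in LacZ (3.93 to 8.02 TPM), groups that overlapped (SD, n = 4 each, log2 fold change -0.70, SE 0.35, limma, adjusted p = 0.501). In WT livers Myc was 7.63 ± 2.27 TPM in HuR KD (4.70 to 9.80 TPM) and 5.37 ± 0.977 TPM in LacZ (3.74 to 6.42 TPM), which also overlapped (n = 6 each, log2 fold change 0.41, SE 0.18, adjusted p = 0.276). At the unadjusted threshold used for the members Myc was called higher in WT livers by limma, and MYC was not called in humanized livers. The human change was below the mouse change by -1.11 on the log2 scale (adjusted p = 0.0805), which did not pass.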
